A study of Mus musculus with 11 samples.

Results

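The 10 genes examined encode stimulus-responsive transcription factors: the FOS proteins (Fos, Fosb, Fosl1, Fosl2), the JUN proteins (Jun, Junb, Jund), and Egr1, Atf3 and Nr4a1. They were taken by gene symbol from the deposited array values, 1 probe set each, out of 19938 genes measured, and all 10 were found. Expression was measured on Affymetrix arrays in mouse stomach, 1 array per sample. The pChePS_GC group held 4 samples of gastric cancer tissue from mice with Pdx-1-Cre and the floxed alleles Cdh1F/+, Trp53F/F and Smad4F/F. The pCP_GC group held 3 samples of gastric cancer tissue from mice with Pdx-1-Cre, Cdh1F/F and Trp53F/F. Both tumour groups are labelled as diffuse type and as untreated. The NGE group held 4 samples of normal gastric epithelium from untreated Pdx1-1-Cre-negative mice. Recombination is limited to cells that made the Pdx-1-Cre recombinase and to their descendants, so stromal cells in the tumours need not carry it. The labels used here give neither the floxed alleles of the NGE mice nor the age, strain or number of mice in any group.

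FOS and JUN proteins pair through leucine zippers to form AP-1, which binds DNA at the promoters and enhancers of genes for growth, invasion and inflammation. FOS proteins bind DNA as AP-1 only with a partner, whereas JUN proteins can also pair with each other. Several of these genes are immediate early genes: growth factors, cytokines and stress switch them on within minutes, through ERK and other MAP kinases that act on factors already present, and their messages decay fast. Their messages are for that reason also known to respond to the way tissue is removed and handled.

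Signals are on the log2 scale, and levels of different probe sets are not compared with each other. Array medians over all 35556 probe sets lay between 7.63 and 7.81. As a guide to background, 95% of 1190 olfactory and vomeronasal receptor genes averaged under 6.99 in pChePS_GC, 6.86 in pCP_GC and 7.24 in NGE. All 10 factors read above these levels on every array. Where another gene was under its group's level on every array, its change is given as a bound against that level. No claim is made that such a gene is silent. Such a bound sets the mean of the tumour group against that level and leaves out the spread of the arrays. The adjusted p beside it is that of the measured change. Cdh1, which is floxed in both tumour groups, read 8.73 to 11.07 in pChePS_GC, 10.52 to 12.02 in pCP_GC and 12.93 to 13.02 in NGE, and whether its probe set covers the floxed exons is not known here. Smad4, labelled as floxed in pChePS_GC only, read 10.17 to 11.02 in pChePS_GC, 11.41 to 11.49 in pCP_GC and 11.05 to 11.16 in NGE. Its change in pChePS_GC against NGE was -0.60, and the cover of its floxed exons is not known either. The groups also differed in sex-linked RNA: Xist read 5.72 to 6.02 in pChePS_GC, 5.57 to 5.81 in pCP_GC and 11.54 to 12.66 in NGE. Eif2s3y, a gene of the Y chromosome, read 9.21 to 11.09 in pChePS_GC, 8.08 to 10.01 in pCP_GC and 4.94 to 5.19 in NGE. Sex and tumour state therefore cannot be told apart for any gene in either comparison with NGE. The tissue labels were checked against markers. The mean level of 10 gastric epithelial markers was 9.58 to 11.74 in pChePS_GC, 11.21 to 12.84 in pCP_GC and 13.83 to 13.98 in NGE. At an adjusted p under 0.05, 8 of 10 were lower in pChePS_GC and 3 of 10 in pCP_GC. Every pCP_GC array was below every NGE array for 8 of 10 and above for 1, against 35.6% and 24% of all genes. The median change of these markers was -2.65 in pChePS_GC and -1.25 in pCP_GC. Markers of epithelium in general did not fall: of 4, 2 were higher in pChePS_GC and 1 in pCP_GC, and their mean level was 13.20 to 13.27 in pChePS_GC, 12.94 to 13.38 in pCP_GC and 13.04 to 13.08 in NGE. Of 3 T cell markers, 0 were higher and 1 was lower in each tumour group, and of 4 squamous markers 0 were higher and 1 was lower in each. The T cell marker Cd3d was under the level of the receptor genes on every array. Cd8a, the T cell marker that was lower, averaged 7.23 in pChePS_GC, 6.95 in pCP_GC and 7.54 in NGE, near that level. Markers of fibroblasts (6 of 6), macrophages (6 of 6), endothelium (4 of 4), smooth muscle (4 of 4) and neutrophils (4 of 4) were all higher in each tumour group than in NGE at an adjusted p under 0.05. The mean level of the fibroblast markers was 10.93 to 11.99 in pChePS_GC, 11.06 to 12.06 in pCP_GC and 7.80 to 8.09 in NGE. For every change against NGE below, a different mix of cells and a different level per cell cannot be told apart, and the part of these cell types was not tested.

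Against NGE, 4 of the 10 factors passed in pChePS_GC and 5 of 10 in pCP_GC, at an adjusted p under 0.05 in limma, adjusted over all 19938 genes. Egr1 and Nr4a1 rose and Atf3 fell in both tumour groups. Jun fell in pChePS_GC, and Fosl2 and Jund fell in pCP_GC. Over all genes, 42.1% passed in pChePS_GC (18.7% higher, 23.4% lower) and 51.8% in pCP_GC (20% higher, 31.8% lower), so the share of the 10 factors that passed lay near that of all genes. The arrays of pChePS_GC and NGE did not overlap for 3 of the 10 factors (1 higher, 2 lower), against 40.6% of all genes (17.7% higher, 22.9% lower). Those of pCP_GC and NGE did not overlap for 6 (2 higher, 4 lower), against 59.6% of all genes (24% higher, 35.6% lower). The median change of the 10 factors was -0.26 in pChePS_GC and -0.17 in pCP_GC, and that of all genes was -0.10 in pChePS_GC and -0.12 in pCP_GC. The comparisons with NGE share the same 4 NGE arrays. No label ties each sample to a mouse of its own, and the p-values therefore reflect the spread among the arrays, which may be partly technical.

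**Figure D1:**
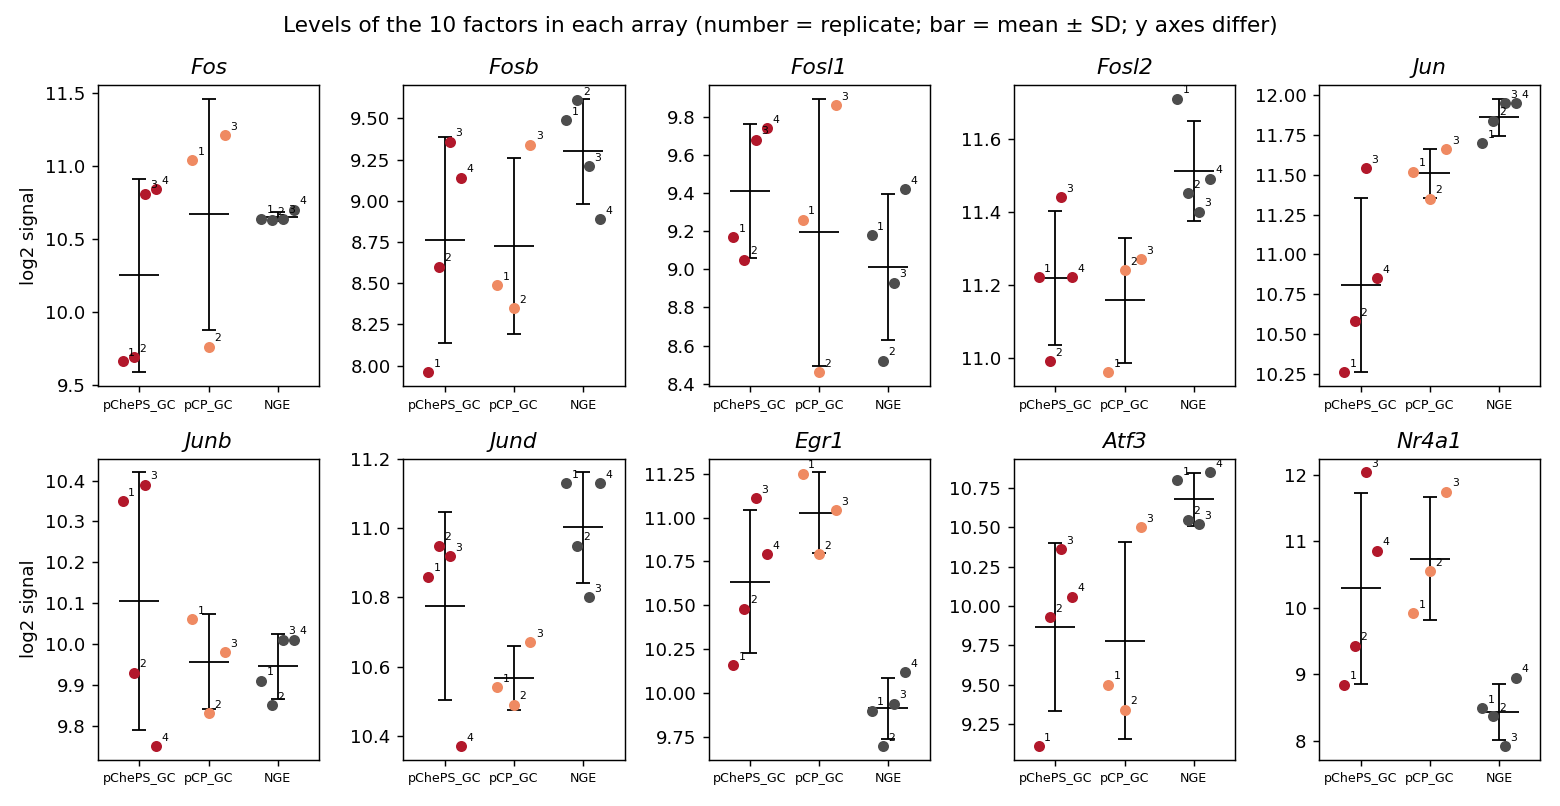
Log2 signal of the 10 factors in each array (points, numbered by replicate) of pChePS_GC, pCP_GC and NGE, with the mean and SD of each group as bars. The vertical axes differ between genes. Nr4a1 reads 7.92 to 8.95 in NGE and up to 12.04 in pChePS_GC, and Fos lies between 10.63 and 10.70 in NGE but between 9.66 and 11.21 in the tumour arrays.

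Fos, the prototype of its family, did not pass in either comparison, yet its tumour arrays were widely spread. It read 9.66, 9.69, 10.81 and 10.84 in pChePS_GC, 11.04, 9.76 and 11.21 in pCP_GC, and 10.64, 10.63, 10.64 and 10.70 in NGE. The NGE arrays were close together and lay between the high and low tumour arrays of both groups. Replicates 1 and 2 of pChePS_GC and replicate 2 of pCP_GC were below every NGE array, and the other tumour arrays were above every NGE array. The difference was -0.40 for pChePS_GC against NGE (SE 0.35, adjusted p = 0.363) and 0.02 for pCP_GC against NGE (SE 0.38, adjusted p = 0.970). The SD of Fos was 0.66 in pChePS_GC, 0.79 in pCP_GC and 0.03 in NGE. Among all genes ranked by SD, Fos stood at percentile 94.6 in pChePS_GC, 97.2 in pCP_GC and 2.02 in NGE.

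Fosb, a close relative of Fos, read 7.96, 8.60, 9.36 and 9.14 in pChePS_GC, 8.49, 8.35 and 9.34 in pCP_GC, and 9.49, 9.61, 9.21 and 8.89 in NGE. The groups overlapped, and the differences from NGE were -0.54 in pChePS_GC (adjusted p = 0.180) and -0.58 in pCP_GC (adjusted p = 0.173). Fosl1 encodes FRA1, a FOS protein that lacks the strong activation domain of FOS and is known from invasive carcinoma cells. It read 9.17, 9.05, 9.68 and 9.74 in pChePS_GC, 9.26, 8.46 and 9.86 in pCP_GC, and 9.18, 8.52, 8.93 and 9.42 in NGE. These groups overlapped as well, and the differences from NGE were 0.40 in pChePS_GC (95% interval -0.25 to 1.05, adjusted p = 0.288) and 0.18 in pCP_GC (95% interval -0.52 to 0.88, adjusted p = 0.654). Fosl2 encodes FRA2, the other FOS protein of that kind. It read 11.22, 10.99, 11.44 and 11.22 in pChePS_GC, 10.96, 11.24 and 11.27 in pCP_GC, and 11.71, 11.45, 11.40 and 11.49 in NGE. Every pCP_GC array was below every NGE array, and replicate 3 of pChePS_GC was within the NGE range. Fosl2 fell by 0.36 in pCP_GC (SE 0.13, adjusted p = 0.0358), and its difference in pChePS_GC was -0.30 (SE 0.12, adjusted p = 0.0634). The Fosl2 call in pCP_GC was lost without NGE replicate 1 or 4 (adjusted p = 0.0925 and 0.0634) or pCP_GC replicate 1 or 2 (adjusted p = 0.146 and 0.0519), and over all alternatives it lay between 0.00326 and 0.146. In pChePS_GC Fosl2 passed without replicate 3 of pChePS_GC (adjusted p = 0.0320), and weighting the arrays gave an adjusted p of 0.0361.

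In the JUN family, Jun passed in pChePS_GC, Jund passed in pCP_GC and Junb passed in neither. Jun, the strongest activator among the JUN proteins and a substrate of JNK kinases, read 10.26, 10.58, 11.54 and 10.85 in pChePS_GC, 11.52, 11.35 and 11.66 in pCP_GC, and 11.70, 11.84, 11.95 and 11.95 in NGE. All 7 tumour arrays were below all 4 NGE arrays. Jun fell by 1.05 in pChePS_GC, 2.07-fold lower than in NGE (SE 0.22, adjusted p = 0.00398), a call kept under all 20 alternative fits (the scalings, filters, models and left-out arrays, at the same threshold of 0.05), where the adjusted p ranged from 0.000124 to 0.0142. In pCP_GC the difference was -0.35 (SE 0.24, adjusted p = 0.234). The groups did not overlap there either, and with only pCP_GC and NGE in the fit it passed (adjusted p = 0.0239, range over the alternatives 0.0239 to 0.446).

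Junb, a weaker activator than Jun that can restrain it, read 10.35, 9.93, 10.39 and 9.75 in pChePS_GC, 10.06, 9.83 and 9.98 in pCP_GC, and 9.91, 9.85, 10.01 and 10.01 in NGE. These groups overlapped, and the differences from NGE were 0.16 in pChePS_GC (95% interval -0.14 to 0.47, adjusted p = 0.351) and 0.02 in pCP_GC (95% interval -0.32 to 0.35, adjusted p = 0.933). Jund, which is made steadily in resting cells and is not a typical immediate early gene, read 10.86, 10.95, 10.92 and 10.37 in pChePS_GC, 10.54, 10.49 and 10.67 in pCP_GC, and 11.13, 10.95, 10.80 and 11.13 in NGE. The pCP_GC arrays were all below the NGE arrays, and replicate 4 of pChePS_GC was the lowest of all. Jund fell by 0.43 in pCP_GC (SE 0.15, adjusted p = 0.0285), and its difference in pChePS_GC was -0.23 (SE 0.14, adjusted p = 0.191). The Jund call in pCP_GC was lost without NGE replicate 1 or 4 (adjusted p = 0.0707 and 0.0726) or pCP_GC replicate 1 or 2 (adjusted p = 0.0734 and 0.0864), in a range of 0.00278 to 0.0864.

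Atf3 encodes a stress-induced leucine zipper protein that pairs with JUN proteins and often represses its targets. It read 9.11, 9.93, 10.36 and 10.06 in pChePS_GC, 9.50, 9.34 and 10.50 in pCP_GC, and 10.80, 10.55, 10.52 and 10.85 in NGE. All 7 tumour arrays were below all 4 NGE arrays, with replicate 3 of each tumour group nearest to NGE. Atf3 fell by 0.81 in pChePS_GC, 1.76-fold lower than in NGE (SE 0.29, adjusted p = 0.0433). In pCP_GC it fell by 0.90, 1.86-fold lower than in NGE (SE 0.31, adjusted p = 0.0334). The Atf3 call in pChePS_GC was lost without NGE replicate 1, 2, 3 or 4 (adjusted p = 0.0951, 0.0603, 0.0698 and 0.0992), pChePS_GC replicate 1, 2 or 4 (adjusted p = 0.0958, 0.0748 and 0.0518) or pCP_GC replicate 1 (adjusted p = 0.0509), in a range of 0.0136 to 0.0992. In pCP_GC it was lost without NGE replicate 1, 3 or 4 (adjusted p = 0.0715, 0.0514 and 0.0750) or pCP_GC replicate 1 or 2 (adjusted p = 0.111 and 0.133), in a range of 0.00348 to 0.133.

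Egr1 and Nr4a1 were higher in both tumour groups. Egr1 encodes a zinc finger factor that is switched on by ERK through serum response factor and binds GC-rich sites. It read 10.16, 10.48, 11.11 and 10.79 in pChePS_GC, 11.25, 10.79 and 11.04 in pCP_GC, and 9.90, 9.70, 9.94 and 10.12 in NGE. All 7 tumour arrays were above all 4 NGE arrays, replicate 1 of pChePS_GC only just. Egr1 rose by 0.72 in pChePS_GC, a 1.65-fold difference (SE 0.19, adjusted p = 0.0124), and by 1.11 in pCP_GC, a 2.16-fold difference (SE 0.20, adjusted p = 0.00160). Both Egr1 calls were kept under the same 20 alternative fits, with adjusted p up to 0.0451 in pChePS_GC and up to 0.00820 in pCP_GC, but the one in pChePS_GC did not meet an adjusted p under 0.01 or a 2-fold change.

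Nr4a1 encodes the orphan nuclear receptor NUR77, an immediate early gene of growth factor, calcium and antigen receptor signals. It read 8.84, 9.43, 12.04 and 10.86 in pChePS_GC, 9.92, 10.55 and 11.75 in pCP_GC, and 8.49, 8.37, 7.92 and 8.95 in NGE. Every pCP_GC array was above every NGE array. Replicate 1 of pChePS_GC lay within the NGE range, and replicate 3 of each tumour group was the highest of its group. Nr4a1 rose by 1.86 in pChePS_GC, a 3.64-fold difference (SE 0.63, adjusted p = 0.0358), and by 2.30 in pCP_GC, a 4.94-fold difference (SE 0.68, adjusted p = 0.0160). Its SD was 1.44 in pChePS_GC, 0.93 in pCP_GC and 0.42 in NGE, which stood at percentile 99.4, 98.2 and 98.5 of all genes in those groups. The Nr4a1 call in pChePS_GC was lost with quantile normalization (adjusted p = 0.0647), without NGE replicate 1, 2, 3 or 4 (adjusted p = 0.0704, 0.0643, 0.0932 and 0.0515) and without pChePS_GC replicate 3 or 4 (adjusted p = 0.0710 and 0.0756), in a range of 0.0112 to 0.0932. Without pChePS_GC replicate 3 the change of Nr4a1 in pChePS_GC was 1.28. In pCP_GC the Nr4a1 call was lost without pCP_GC replicate 3, where the change was 1.80 (adjusted p = 0.0688, range 0.00212 to 0.0688).

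**Figure D2:**
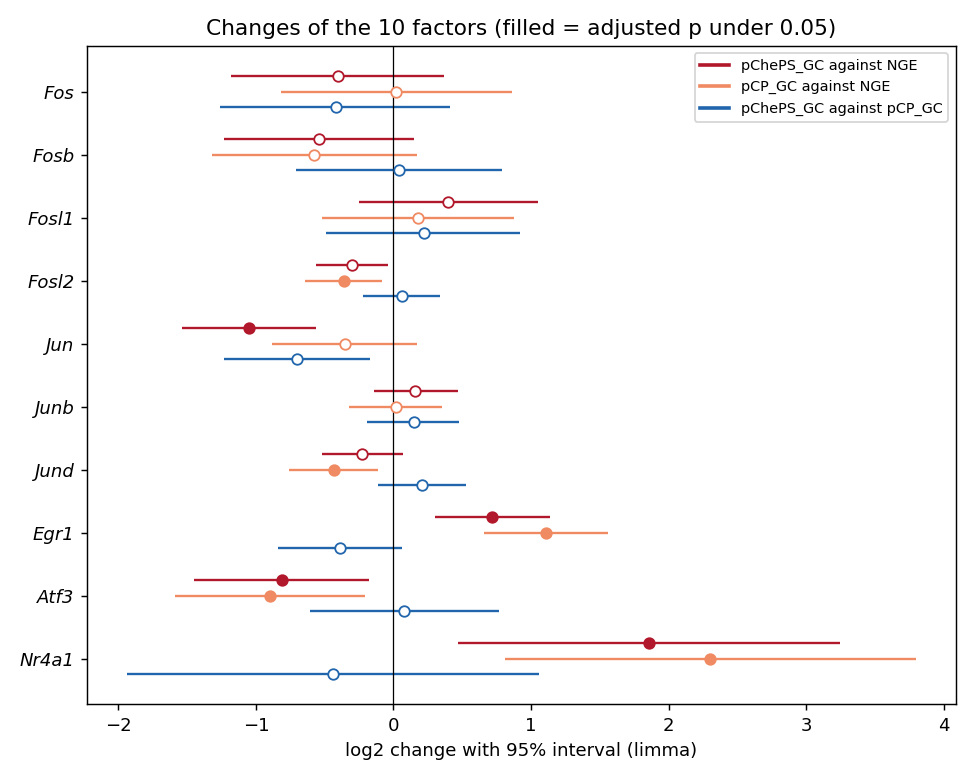
Log2 changes of the 10 factors (points) with 95% intervals from limma (lines) for pChePS_GC against NGE, pCP_GC against NGE and pChePS_GC against pCP_GC, filled where the adjusted p was under 0.05. Egr1 and Nr4a1 lie right of 0 and Atf3 left of 0 in both comparisons with NGE, Jun is at -1.05 in pChePS_GC, and no point of the comparison between tumour groups is filled.

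The promoters of 8 of the 10 genes were read from RefSeq (GRCm38.p6), over the 250 bases before each start, and Fosl1 and Egr1 had no entry. The search took in the AP-1 site TGANTCA, the full CRE TGACGTCA, the CRE core TGACG that the full CRE contains, the EGR site GCGNGGGCG and the CArG box bound by serum response factor, each on both strands, and the TATA box TATAAA on the gene's strand. The EGR site was found in 3 of 8 (Nr4a1, Fosb and Fosl2), against 4.70% of 32851 promoters in the table. The CRE core was found in 5 of 8 (Fos, Fosb, Junb, Atf3 and Nr4a1), against 17.8% of all promoters, and the TATA box in 1 of 8 (Fos), against 7.59%. The promoters behind these shares were not matched to the 8 for base composition, and an excess over the shares was not tested. The AP-1 site, the full CRE and the CArG box, which 6.75%, 1.55% and 1.47% of all promoters hold, were not among the letters of these 8 windows. Sites further upstream or with other letters were outside the search, so this absence does not show that the genes lack such sites. The stretches from 100 to 21 bases before the start are shown 5′ to 3′ on the gene's strand for the 3 genes with an EGR site and for Fos, the prototype of the FOS family, with EGR sites, CRE cores and the TATA box in capitals. They lie at chr15:101266746-101266825 on the plus strand (Nr4a1), chr7:19310066-19310145 on the minus strand (Fosb), chr5:32136372-32136451 on the plus strand (Fosl2) and chr12:85473790-85473869 on the plus strand (Fos).
Nr4a1: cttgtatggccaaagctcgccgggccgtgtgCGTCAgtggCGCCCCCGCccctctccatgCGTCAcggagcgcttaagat
Fosb: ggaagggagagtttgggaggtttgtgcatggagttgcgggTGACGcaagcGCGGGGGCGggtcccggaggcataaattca
Fosl2: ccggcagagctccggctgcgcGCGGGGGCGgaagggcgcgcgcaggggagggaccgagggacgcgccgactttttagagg
Fos: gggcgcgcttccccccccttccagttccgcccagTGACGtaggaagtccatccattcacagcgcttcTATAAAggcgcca
Of the 3 genes with an EGR site, Nr4a1 rose in both tumour groups, Fosl2 fell in pCP_GC and Fosb did not pass in either.

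The relatives of Egr1 and Nr4a1 differed among themselves, as did the corepressors of the EGR factors. Those relatives that fall outside the naming rule were named after their values were seen. Egr2, an EGR factor known from Schwann cells and immune cells, rose by 0.89 in pChePS_GC (adjusted p = 0.0307) and by 0.92 in pCP_GC (adjusted p = 0.0298). The Egr2 call was lost in pChePS_GC without any 1 of the NGE arrays or of pChePS_GC replicates 2, 3 and 4 (adjusted p up to 0.0740), and in pCP_GC without NGE replicate 2, 3 or 4 or pCP_GC replicate 2 (adjusted p up to 0.0748). Without pCP_GC replicate 2 the change of Egr2 in pCP_GC was 0.44. Egr3 differed from NGE by -0.09 in pChePS_GC (adjusted p = 0.599) and by 0.03 in pCP_GC (adjusted p = 0.871). Egr4 fell by 0.64 in pCP_GC (adjusted p = 0.000933), and its difference in pChePS_GC was -0.21 (adjusted p = 0.105), which passed without NGE replicate 2 (adjusted p = 0.0435). Nab2, a corepressor that EGR factors induce and that binds them, rose by 0.76 in pChePS_GC (adjusted p = 0.00355) and by 1.01 in pCP_GC (adjusted p = 0.00101). Of the 5 measured genes of its list, Nab2 was the only one that passed in pChePS_GC, and Nab1, the related corepressor, also passed in pCP_GC (0.53, adjusted p = 0.0490), a call lost under 12 of its alternatives, with adjusted p up to 0.208.

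Nr4a2, the NURR1 receptor of the same family as Nr4a1, went the other way. It read 8.20, 8.71, 10.17 and 9.40 in pChePS_GC, 9.83, 10.01 and 10.37 in pCP_GC, and 11.16, 10.91, 10.93 and 10.76 in NGE. All 7 tumour arrays were below all 4 NGE arrays. Nr4a2 fell by 1.82 in pChePS_GC (SE 0.34, adjusted p = 0.00205), and its difference in pCP_GC was -0.87 (adjusted p = 0.0672), which passed with only pCP_GC and NGE in the fit (adjusted p = 0.00182), without pChePS_GC replicate 1 or 3 (adjusted p = 0.0261 and 0.0139), with arrays centred (-1.09, adjusted p = 0.0206) and with arrays weighted (adjusted p = 0.0122). Nr4a3, the third receptor of the family, differed from NGE by -0.30 in pChePS_GC (adjusted p = 0.591) and by -0.28 in pCP_GC (adjusted p = 0.641). Within the tumour groups, replicate 3 of each was the highest for Nr4a1 and for Nr4a2.

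**Figure D3:**
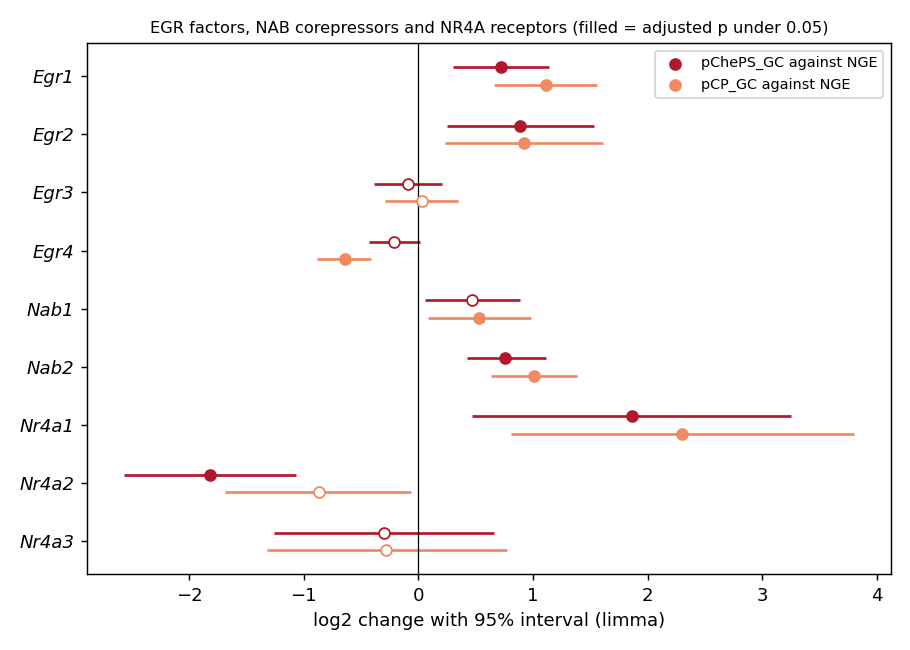
Log2 changes with 95% intervals from limma for the EGR factors, the NAB corepressors and the NR4A receptors in pChePS_GC and pCP_GC, each against NGE, filled where the adjusted p was under 0.05. Nr4a1 lies at 1.86 and 2.30 while Nr4a2 lies at -1.82 and -0.87, and Egr1 and Egr2 lie right of 0 with Egr3 near 0.

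Among 20 other immediate early genes, 6 rose and 3 fell in pChePS_GC and 5 rose and 2 fell in pCP_GC, with a median change of 0.20 in pChePS_GC and 0.08 in pCP_GC. Over all genes, 18.7% rose and 23.4% fell in pChePS_GC, and 20% rose and 31.8% fell in pCP_GC. Ccn1, a secreted matrix protein induced by growth factors, rose by 2.90 in pChePS_GC (SE 0.37, adjusted p = 0.000167) and by 3.22 in pCP_GC (SE 0.40, adjusted p = 0.000164). Klf4, a zinc finger factor of differentiated epithelium, fell by 1.98 in pChePS_GC (SE 0.18, adjusted p = 2.22e-05), and in pCP_GC it fell by 1.62 (SE 0.20, adjusted p = 0.000167). Myc, a growth-promoting factor, rose by 0.97 in pChePS_GC (adjusted p = 0.00533) and by 0.81 in pCP_GC (adjusted p = 0.0135). Among 18 measured leucine zipper partners of AP-1, 3 rose and 3 fell in each comparison, beside the same shares of all genes. Nfe2l2, the NRF2 factor of oxidative stress, fell by 0.71 in pChePS_GC (adjusted p = 0.000527) and fell by 0.42 in pCP_GC (adjusted p = 0.0112). Crem, a cyclic AMP-responsive factor, averaged 7.57 in pChePS_GC and 7.81 in pCP_GC, against 6.97 in NGE, under the receptor level on every NGE array. Its mean was at least 1.25-fold higher in pChePS_GC (adjusted p = 0.00231) and at least 1.48-fold higher in pCP_GC (adjusted p = 0.000449). Atf2, a partner of Jun, rose by 0.39 in pChePS_GC (adjusted p = 0.00800) and by 0.62 in pCP_GC (adjusted p = 0.000855). Maf differed by 0.58 in pChePS_GC (adjusted p = 0.0580) and rose by 0.73 in pCP_GC (adjusted p = 0.0272). Batf3 differed by -0.25 in pChePS_GC (adjusted p = 0.108) and fell by 0.52 in pCP_GC (adjusted p = 0.00714). Mafk fell by 0.39 in pChePS_GC (adjusted p = 0.0323), while in pCP_GC the difference was -0.36 (adjusted p = 0.0516). The Maf call was lost without NGE replicate 1, 2 or 3 (adjusted p = 0.0508, 0.0534 and 0.0603) and the Mafk call without NGE replicate 1 or 4 or pChePS_GC replicate 1 or 2 (adjusted p = 0.0731, 0.0920, 0.0782 and 0.0846).

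Upstream of these genes lie MAP kinases and the ternary complex factors that recruit serum response factor. Of 14 measured genes of that kind, 4 rose and 1 fell in pChePS_GC and 4 rose and 2 fell in pCP_GC, with a median change of 0.11 in pChePS_GC and 0.23 in pCP_GC. Beside them, 18.7% of all genes rose and 23.4% fell in pChePS_GC, and 20% rose and 31.8% fell in pCP_GC. Elk3, a ternary complex factor that is strong in endothelium, rose by 1.66 in pChePS_GC (adjusted p = 2.24e-05) and by 1.76 in pCP_GC (adjusted p = 3.19e-05), and the endothelial markers were higher in both groups as well. Mrtfb, a coactivator of serum response factor, rose by 0.78 in pChePS_GC (adjusted p = 0.00196) and by 0.77 in pCP_GC (adjusted p = 0.00273), while its relative Mrtfa fell by 0.55 in pChePS_GC (adjusted p = 0.00448) and by 0.57 in pCP_GC (adjusted p = 0.00451). The JNK kinase gene Mapk8 rose by 0.63 in pChePS_GC (adjusted p = 0.00551) and by 0.49 in pCP_GC (adjusted p = 0.0205). Elk1, another ternary complex factor, rose by 0.53 in pChePS_GC (adjusted p = 0.0140) and by 0.68 in pCP_GC (adjusted p = 0.00467). The MEK kinase gene Map2k1 differed by -0.30 in pChePS_GC (adjusted p = 0.0674) and fell by 0.78 in pCP_GC (adjusted p = 0.000953).

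The list of ERK feedback and output genes holds inhibitors that ERK induces against its own signal and other outputs of ERK, such as the ETS factors Etv4 and Etv5. Of these 12 genes, 7 rose and 0 fell in pChePS_GC and 7 rose and 1 fell in pCP_GC, with medians of 0.89 in pChePS_GC and 0.68 in pCP_GC. The shares over all genes were 18.7% higher and 23.4% lower in pChePS_GC, and 20% higher and 31.8% lower in pCP_GC. Spred1, an inhibitor of RAS and RAF signalling, rose by 1.21 in pChePS_GC (adjusted p = 3.62e-05) and by 1.19 in pCP_GC (adjusted p = 7.8e-05). Spry4, a Sprouty inhibitor, rose by 1.06 in pChePS_GC (adjusted p = 0.00694) and by 1.52 in pCP_GC (adjusted p = 0.00128). Etv5, an ETS factor downstream of ERK, rose by 1.11 in pChePS_GC (adjusted p = 0.00362) and by 1.47 in pCP_GC (adjusted p = 0.000996). Spred2, a relative of Spred1, rose by 0.90 in pChePS_GC (adjusted p = 6.5e-05) and by 0.87 in pCP_GC (adjusted p = 0.000169). Dusp6, an ERK phosphatase, rose by 1.10 in pChePS_GC (adjusted p = 0.00496), and its difference in pCP_GC was 0.35 (adjusted p = 0.269).

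Of 17 measured genes known as targets of AP-1, 9 rose in pChePS_GC and 11 in pCP_GC and 0 fell in either, with medians of 1.67 in pChePS_GC and 1.71 in pCP_GC. Over all genes, 18.7% rose and 23.4% fell in pChePS_GC, and 20% rose and 31.8% fell in pCP_GC. Of the 17, 5 were under the receptor level on every NGE array, and with those at their bound the medians were 1.18 in pChePS_GC and 1.41 in pCP_GC. Cd44, a hyaluronan receptor, rose by 4.18 in pChePS_GC (SE 0.29, adjusted p = 3.3e-06) and by 4.70 in pCP_GC (SE 0.31, adjusted p = 4.18e-06). Timp1, a metalloproteinase inhibitor, averaged 12.23 in pChePS_GC and 10.69 in pCP_GC, against 6.82 in NGE, which was under the receptor level on every NGE array. It was at least 31.8-fold higher in pChePS_GC (adjusted p = 1.8e-05) and at least 10.9-fold higher in pCP_GC (adjusted p = 0.000298). Ptgs2, the inducible cyclooxygenase, rose by 3.78 in pChePS_GC (adjusted p = 0.00176) and by 2.99 in pCP_GC (adjusted p = 0.00712). Plau, the urokinase gene, averaged 9.11 in pChePS_GC and 9.48 in pCP_GC, against 6.96 in NGE, also under the receptor level there. Its mean was at least 3.65-fold higher in pChePS_GC (adjusted p = 1.95e-05) and at least 4.72-fold higher in pCP_GC (adjusted p = 1.44e-05). The collagenase gene Mmp13 read 10.07, 9.02 and 12.54 in pCP_GC, against 7.20, 6.62, 6.97 and 6.83 in NGE, all under the receptor level. It was at least 9.85-fold higher in pCP_GC (adjusted p = 0.01). In pChePS_GC Mmp13 read 7.23, 7.81, 11.39 and 9.71, with replicates 3 and 4 far above replicates 1 and 2 (adjusted p = 0.0772). Many of these targets are also expressed by fibroblasts, macrophages and neutrophils, whose markers were higher in both tumour groups, and their part was not tested.

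Heat shock genes, which also respond to handling of tissue, were mixed. Of 9 measured, 1 rose and 3 fell in pChePS_GC and 1 rose and 1 fell in pCP_GC, with a median of -0.20 in each. Beside them, 18.7% of all genes rose and 23.4% fell in pChePS_GC, and 20% rose and 31.8% fell in pCP_GC. Hspb1, a small heat shock protein also made in muscle, rose by 2.70 in pChePS_GC (adjusted p = 0.00353) and by 3.07 in pCP_GC (adjusted p = 0.00214). Dnajb1, a cochaperone, fell by 0.69 in both pChePS_GC (adjusted p = 0.0106) and pCP_GC (adjusted p = 0.0111). Hsph1 fell by 1.02 in pChePS_GC (adjusted p = 0.0123), while in pCP_GC the difference was -0.32 (adjusted p = 0.367). Hspa1a fell by 1.52 in pChePS_GC (adjusted p = 0.0278), while in pCP_GC the difference was -1.04 (adjusted p = 0.112). Hspa1a, an inducible chaperone, read 9.56, 9.23, 9.30 and 9.09 in pChePS_GC, 9.57, 9.07 and 10.67 in pCP_GC, and 12.30, 10.10, 9.96 and 10.88 in NGE, with the highest value in NGE replicate 1. Without that array its change in pChePS_GC was -1.02 (adjusted p = 0.0501), and the call was also lost without NGE replicate 4 or pChePS_GC replicate 2 or 4 (adjusted p = 0.0622, 0.0592 and 0.0539).

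Within each tumour group the 10 factors were often high or low in the same array. Replicate 3 of pChePS_GC was the highest of its group for 7 of the 10 factors and the lowest for 0, whereas over all genes it was the highest for 25.8%. Replicate 1 of pChePS_GC was the lowest for 6 of 10 and the highest for 0, against 31.9% of all genes at their lowest there. Replicate 3 of pCP_GC was the highest for 8 of 10, against 35.0% of all genes, and replicate 2 of pCP_GC was the lowest for 8 of 10, against 43.5% of all genes. In NGE, replicate 4 was the highest for 7 of 10, against 16.2% of all genes. The mean level of the 10 factors was 9.76, 9.96, 10.77 and 10.36 in pChePS_GC, 10.25, 10.01 and 10.73 in pCP_GC, and 10.30, 10.15, 10.13 and 10.35 in NGE. The NGE arrays thus lay inside the range of the pChePS_GC arrays. The median SD of the 10 factors was 0.472 in pChePS_GC, 0.385 in pCP_GC and 0.164 in NGE, and that of all genes was 0.184 in pChePS_GC, 0.155 in pCP_GC and 0.136 in NGE.

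**Figure D4:**
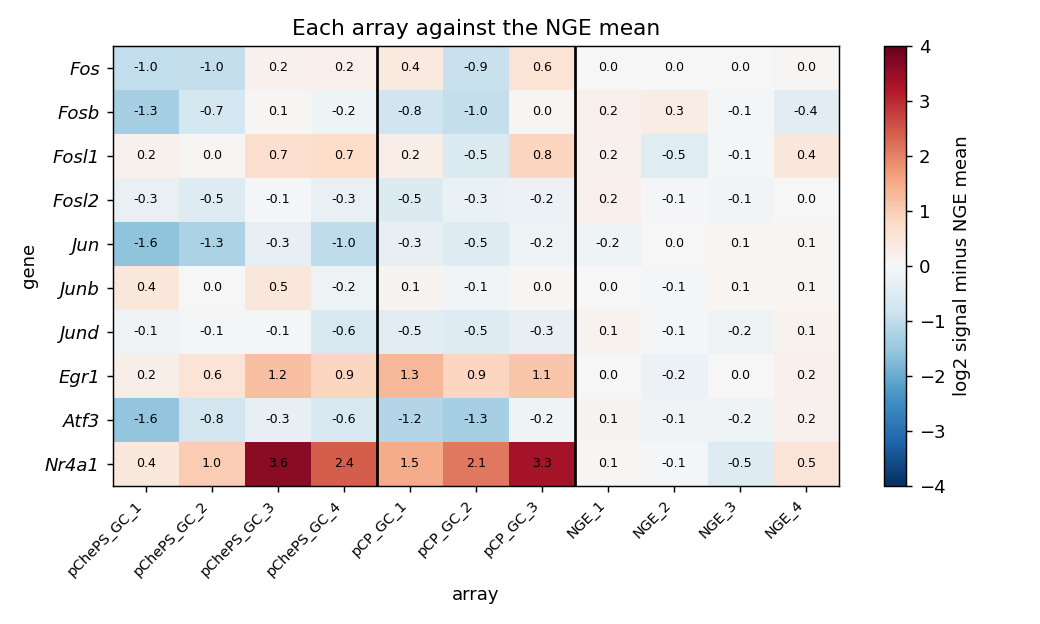
Log2 signal of each factor in each array minus its NGE mean (colour and printed value), with the arrays in columns and the groups divided by black lines. Nr4a1 in replicate 3 of pChePS_GC and of pCP_GC gives the darkest cells, and replicates 1 and 2 of pChePS_GC are below the NGE mean for Fos, Fosb, Jun and Atf3.

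The other immediate early genes showed the same arrays at the top. Replicate 3 of pChePS_GC was the highest of its group for 13 of 20, against 25.8% of all genes. Replicate 3 of pCP_GC was the highest for 13 of 20, against 35.0%. At the low end they differed from the factors. Replicate 1 of pChePS_GC was the lowest for 4 of 20 and replicate 2 for 8 of 20, against 31.9% and 26.3% of all genes. Replicates 1 and 2 of pCP_GC were the lowest for 9 of 20 each, against 27.1% and 43.5% of all genes. The count for replicate 2 of pCP_GC thus lay near the share of all genes. The mean level of the 17 AP-1 targets was 9.19, 9.22, 10.72 and 10.43 in pChePS_GC, 9.39, 9.70 and 10.55 in pCP_GC, and 8.01, 7.83, 7.91 and 8.02 in NGE. Replicates 3 and 4 of pChePS_GC and replicate 3 of pCP_GC were thus the highest, and all tumour arrays were above all NGE arrays. Il6, an inflammatory cytokine on that list chosen after its values were seen, read 5.14, 5.58, 9.79 and 9.72 in pChePS_GC, 4.31, 7.97 and 8.04 in pCP_GC, and 4.74, 4.62, 4.24 and 4.26 in NGE. All NGE arrays, replicates 1 and 2 of pChePS_GC and replicate 1 of pCP_GC were under the receptor level, and Il6 did not pass in either comparison. Cell type markers varied over the same arrays. The mean level of the fibroblast markers was 10.93, 11.19, 11.99 and 11.57 in pChePS_GC, the same order of arrays as for the 10 factors, and 11.06, 12.06 and 11.24 in pCP_GC, highest in replicate 2. The endothelial markers averaged 9.86, 10.07, 10.97 and 10.39 in pChePS_GC, again in that order, and 9.91, 10.47 and 10.23 in pCP_GC, again highest in replicate 2, against 7.04, 6.87, 6.89 and 6.87 in NGE. The mean level of the neutrophil markers was 8.41, 8.26 and 9.38 in pCP_GC, highest in replicate 3, and 9.50, 9.49, 9.66 and 9.71 in pChePS_GC, against 6.89, 7.01, 6.90 and 7.15 in NGE. The smooth muscle markers averaged 9.26, 12.15, 12.49 and 10.45 in pChePS_GC and 10.94, 12.04 and 10.97 in pCP_GC, against 7.94, 7.86, 7.87 and 7.82 in NGE. The macrophage markers averaged 10.74, 11.30, 10.77 and 11.33 in pChePS_GC and 10.29, 11.51 and 10.67 in pCP_GC, in another order than the 10 factors. The gastric epithelial markers averaged 9.58, 11.74, 11.06 and 11.06 in pChePS_GC and 11.74, 12.84 and 11.21 in pCP_GC, also in another order. The part of these cell types in the order of the arrays was not tested.

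**Figure D5:**
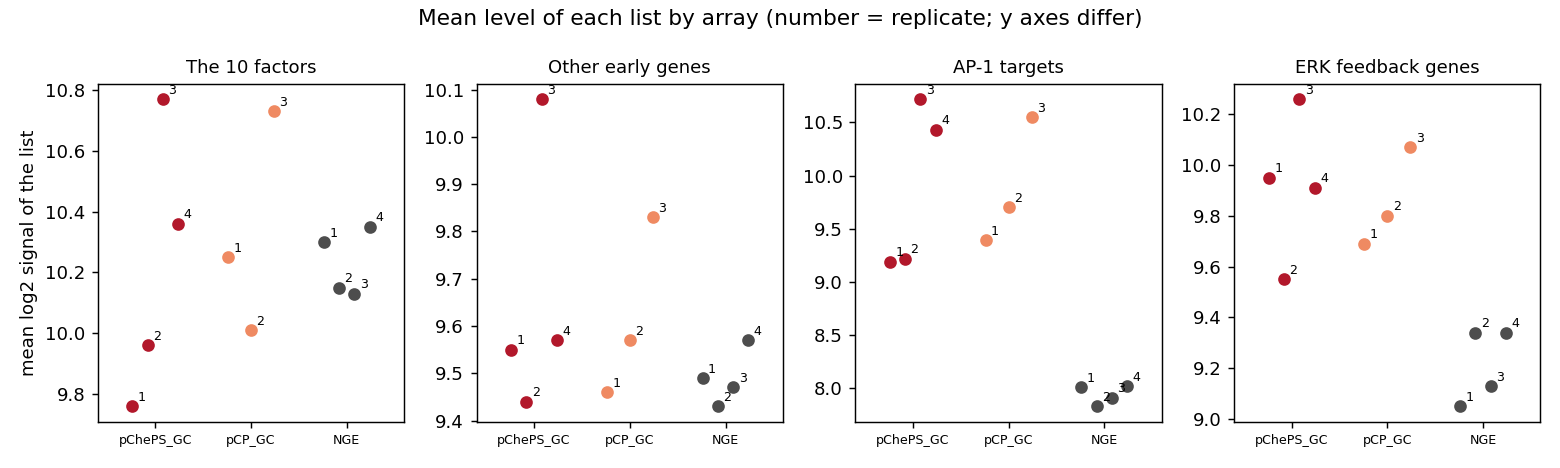
Mean log2 signal over the 10 factors, 20 other immediate early genes, 17 AP-1 targets and 12 ERK feedback genes in each array (points, numbered by replicate) of pChePS_GC, pCP_GC and NGE, with vertical axes that differ. Replicate 3 is the highest of each tumour group in all 4 lists, and for the AP-1 targets every tumour array lies above the NGE arrays (7.83 to 8.02).

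The comparison of the tumour genotypes asks whether tumours with floxed Smad4 and 1 floxed Cdh1 allele differ from tumours with both Cdh1 alleles floxed. Of the 10 factors, 0 passed in limma, against 0.366% of all genes (0.115% higher, 0.251% lower). At an unadjusted p under 0.05, 1 of 10 (Jun) was counted, against 16.5% of all genes. The arrays of the tumour groups overlapped for all 10, whereas they did not overlap for 13.9% of all genes (9.5% higher, 4.4% lower). Nr4a1 differed by -0.44, with a 95% interval of -1.94 to 1.06 (adjusted p = 0.767). Jun was 0.70 lower in pChePS_GC than in pCP_GC on the log2 scale (difference -0.70, 95% interval -1.23 to -0.17, adjusted p = 0.202). Without pChePS_GC replicate 3 the Jun difference, pChePS_GC against pCP_GC, was -0.94 and passed (adjusted p = 0.0304, range over the alternatives 0.0304 to 0.398). Egr1 differed by -0.39 (95% interval -0.84 to 0.06) and Atf3 by 0.08 (95% interval -0.61 to 0.77). The intervals of Fos (-1.26 to 0.41), Fosb (-0.71 to 0.79), Fosl1 (-0.49 to 0.92), Fosl2 (-0.22 to 0.34), Junb (-0.19 to 0.48) and Jund (-0.11 to 0.53) all held 0, which does not show that the groups are alike. The medians of the 20 other immediate early genes, the 12 ERK feedback genes and the 17 AP-1 targets were 0.04, 0.03 and 0.11 in this comparison, with 0 genes passing in each list. At an unadjusted p under 0.05, 3 of 20, 2 of 12 and 1 of 17 were counted in those lists.

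The scaling of the arrays bears on the small changes. Centring each array on its median over the 19938 genes moved the median change of all genes by -0.17 in pChePS_GC and by -0.21 in pCP_GC. These medians differ from those over all probe sets given above. Genes called were then 2695 higher and 9101 lower in pChePS_GC, against 3728 higher and 4658 lower as deposited, and 2686 higher and 9716 lower in pCP_GC, against 3994 higher and 6343 lower. With centring, Fosl2 (-0.47, adjusted p = 0.00786) and Jund (-0.40, adjusted p = 0.0325) also passed in pChePS_GC, and Junb there was -0.010. Egr4 passed in pChePS_GC with centring (-0.39, adjusted p = 0.0131) and with quantile normalization (-0.45, adjusted p = 0.00651). Centring ended the calls of Atf2 in pChePS_GC (adjusted p = 0.107) and of Myc and Maf in pCP_GC (adjusted p = 0.0522 and 0.0574), and quantile normalization ended those of Elk1 and Maf in pCP_GC (adjusted p = 0.0951 and 0.124). The directions of Egr1, Nr4a1, Atf3, Jun, Fosl2 and Jund against NGE were the same with centring and with quantile normalization.

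The genes whose levels over the 11 arrays were most like a factor were found by the root mean square difference of centred log2 levels. For Nr4a1, the factor with the highest change in pChePS_GC, these were Fgf7, a growth factor of fibroblasts (0.37), Dio2, a thyroid hormone deiodinase (0.43) and Rgs1, a regulator of G proteins in leukocytes (0.45), against a median of 1.39 over all genes. Fgf7 averaged 8.20 in pChePS_GC, 8.86 in pCP_GC and 6.45 in NGE, and Rgs1 averaged 8.47 in pChePS_GC, 8.36 in pCP_GC and 5.92 in NGE, so the NGE means of both were under the receptor level of 7.24. For Jun, the factor with the lowest change, they were Ppa1, a pyrophosphatase (0.21), Mrps21, a mitochondrial ribosomal protein (0.21), and Nt5dc3 (0.23), against a median of 0.56.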

How the data were processed

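Gene expression in 11 mouse stomach samples was measured on Affymetrix arrays. The deposited log2 signals, 1 per probe set and array, were processed by the authors with Affymetrix Expression Console, per the submitters' processing notes. The log2 unit was taken from the range of the values (2.88 to 14.56), as the summary method, normalization and genome build are not stated in the labels. Of 35556 probe sets, 21789 had 1 gene symbol, 1621 several and 12146 none in the platform annotation, and 21698 of the 1-symbol probe sets matched RefSeq (GRCm38.p6). Of 999 genes with more than 1 probe set, the one with the highest mean was kept, which left 19938 genes. Arrays were compared with limma 3.58.1 (R 4.3.3), 1 mean per group over all 11 arrays, two-sided, with Benjamini-Hochberg adjustment over all genes and a threshold of 0.05. Intervals are 95% intervals from that fit. The number of arrays limits the precision. Named were all 10 factors, up to 4 passing genes with the largest change per list and comparison, and the 3 genes most like the factors with the highest and lowest change. The factors and gene lists were chosen with earlier results of these data known. Alternatives covered the scaling, the probe set rule, dim genes, the variance prior, array weights, a replicate block, the threshold and leaving out each array. The fit was tested on simulated data with 1 SD per gene in all groups. That test does not cover genes whose spread differs between groups.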

Additional observations from a re-analysis of the deposited data

Results flagged for a closer look

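Jund in replicate 4 of pChePS_GC read 10.37, below the other arrays of its group (10.86, 10.95 and 10.92). Its gap to the nearest of them was 0.844 of the group's range, above Dixon's critical value of 0.829 for 4 samples. Of 20 groups of 4 arrays tested over the 10 factors, this was the only one past it, and chance gives about 1 in 20.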

How the results depend on the processing

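The calls of Jun and Egr1 in pChePS_GC and of Egr1 in pCP_GC were kept under all 20 alternative fits at the threshold of 0.05, which leave out the stricter thresholds given next. The number of factors called was 2 to 4 in pChePS_GC against NGE, 2 to 5 in pCP_GC against NGE and 0 to 1 in pChePS_GC against pCP_GC when 1 array was left out, and 1, 1 and 0 at an adjusted p under 0.01. Requiring a change of at least 2-fold left 2, 2 and 0. Genes called against NGE numbered 4881 in pChePS_GC and 4611 in pCP_GC without the dimmest 50% of genes, 4411 and 6682 at an adjusted p under 0.01, and 2057 and 2185 with a change of at least 2-fold, where the smaller counts follow from fewer genes tested or a stricter rule. Between the tumour groups, the 73 genes called became 0 with only the 2 groups in the fit, 31 without the dimmest 50%, 188 with array weights, 12 at an adjusted p under 0.01, 42 with a 2-fold change, and 26 to 154 when 1 array was left out. Deviations of same-numbered arrays from their group means correlated at -0.155 to 0.156, with 2 of 10 pairs over 0.1. Pairs with different numbers ranged from -0.381 to 0.32. With 3 or 4 arrays per group, these correlations cannot decide whether the numbers pair the samples. With the replicate number as a replicate block, 8553, 9610 and 0 genes and 4, 4 and 0 factors were called, and Fosl2 in pCP_GC had an adjusted p of 0.0716.

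Signs that turned were all of changes that did not pass. With arrays centred, Junb in pChePS_GC was -0.010, and in pCP_GC Fos was -0.19, Fosl1 -0.034, Junb -0.20 and Egr3 -0.18. With quantile normalization, in pCP_GC, Fos was -0.11, Fosl1 -0.11, Junb -0.19 and Egr3 -0.26. Junb was -0.032 in pCP_GC with the replicate block, and Egr3 was -0.065 with array weights. Leaving out 1 array gave, in pCP_GC against NGE, -0.25 to 0.47 for Fos, -0.16 to 0.55 for Fosl1, -0.036 to 0.082 for Junb, -0.10 to 0.18 for Egr3 and -0.69 to 0.093 for Nr4a3. In pChePS_GC against pCP_GC it gave -0.16 to 0.35 for Fosb, -0.15 to 0.55 for Fosl1, -0.037 to 0.14 for Fosl2, -0.14 to 0.44 for Atf3 and -1.02 to 0.063 for Nr4a1. Of the list genes named for passing, 22 of 26 in pChePS_GC and 20 of 25 in pCP_GC passed at 0.05 under every alternative fit run on them, stricter thresholds not counted, and 0 turned sign. The cause of these shifts was not tested.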
